A study of Mus musculus with 8 samples.

Results

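Spp1, Lgals3, Gpnmb, Cd9, Cd63, Cd68, Ms4a7 and Cd163 are genes commonly used to recognise foam cells, the lipid-loaded macrophages of arterial plaques, and macrophages inside tumours. Here their RNA was followed in sorted mouse neutrophils. The 8 genes were picked by name from a table of raw read counts for 55450 genes, and all 8 were present in it. The table holds 8 RNA-seq libraries in 4 groups of 2. The groups were CD71+ and CD71− neutrophils from brain tumours of SB28, a mouse glioma cell line, and CD71+ and CD71− neutrophils generated in vitro from naive mouse bone marrow, called culture below. CD71 is the transferrin receptor, which carries iron-loaded transferrin into cells, and the cells were sorted on it by flow cytometry. The labels name separate samples but no strain, age, number of animals or pooling. The p-values therefore rest on the spread of the samples alone, and that spread may be technical.

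Osteopontin, the product of Spp1, is a secreted protein that binds integrins and CD44 on neighbouring cells. Galectin-3, from Lgals3, binds sugars on glycoproteins, and GPNMB is a membrane glycoprotein of late endosomes and melanosome-like compartments that can also sit on the cell surface. CD9 and CD63 are tetraspanins, membrane organisers abundant on exosomes, with CD63 also found in the azurophil granules of neutrophils. CD68 is a heavily glycosylated lysosomal membrane protein of the LAMP family. MS4A7 belongs to a family of membrane proteins spanning the bilayer several times, and CD163 is the macrophage receptor that takes up haemoglobin bound to haptoglobin. In tumours and in fat-laden tissue, macrophages that express SPP1, GPNMB or TREM2 are described together, but several of these genes are also active in other myeloid cells.

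Total counts ran from 9598959 to 22615813 per library, and levels are given as CPM, counts scaled to a common library size that was adjusted by trimmed mean of M values (TMM). Tfrc, the gene of CD71, stood at 103 and 108 CPM in the tumour CD71+ libraries, against 187 and 145 CPM in the tumour CD71− libraries, so on this scale its RNA went against the sort labels there. Its log2 fold change was -0.65, with an adjusted p of 0.0134 in edgeR's quasi-likelihood test that did not pass when either CD71+ library or replicate 1 of CD71− was left out (0.0518 to 0.0701). With total counts the value was -0.084 and did not pass, and on the scale of mature neutrophil genes described below it turned to 0.38. The groups below are those of the labels. In culture Tfrc was at 116 and 115 CPM in the CD71+ libraries and at 131 and 94.3 CPM in the CD71− libraries, and the groups overlapped. Markers of other cells also moved with the sort. The summed level of 14 macrophage identity genes, none of them among the 8, was 3101 to 3582 CPM in tumour CD71+, 530.2 to 539 CPM in tumour CD71−, 985 to 1104 CPM in culture CD71+ and 727 to 755 CPM in culture CD71− libraries. Of the 14, C1qa was at 0 in both culture CD71− libraries, and the microglia genes Sall1 and Siglech were at 0 in all 4 culture libraries. The sum of 10 microglia genes was 1107 to 1584 CPM in tumour CD71+ libraries and 66.5 to 173 CPM in the other 3 groups. The sum of 20 mature neutrophil genes was 16793 to 17749 CPM in tumour CD71+, 34362 to 36205 CPM in tumour CD71−, 4219 to 5421 CPM in culture CD71+ and 9346 to 10122 CPM in culture CD71− libraries. The share of mitochondrial counts was 1.45% and 2.17% in culture CD71+ and at least 7.09% in culture CD71− libraries, and at most 1.04% in the tumour. In bulk libraries fewer cells of a type and less RNA per cell cannot be told apart, and the part of other cell types in the results was not tested.

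The scaling of the libraries shifts all genes of a comparison together. For CD71+ against CD71− in the tumour, the median log2 fold change of all tested genes was 0.13 with TMM, -0.07 with DESeq2 size factors, 0.69 with total counts and 1.15 when libraries were scaled on the 20 mature neutrophil genes. For tumour against culture in CD71− cells these medians were -0.28, -0.04, -1.21 and -2.13. Relative to the median of all genes, no member's value moved by more than 0.066 between the 4 scalings in any of the 5 comparisons, so values relative to that median are given beside some of the TMM values.

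Per length, as RPKM (the same scale divided by the exonic length), Spp1 led in both CD71+ groups. In tumour CD71+ libraries the mean levels (± SD, n = 2 here and below) ran from Spp1 at 456 ± 3.1 RPKM, Cd9 at 361 ± 11, Cd68 at 159.8 ± 15, Lgals3 at 87.9 ± 18, Cd63 at 47.2 ± 2 and Gpnmb at 11.0 ± 1.8 to Ms4a7 at 2.33 ± 0.31 RPKM. In tumour CD71− libraries Cd9 came first at 558 ± 30 RPKM, ahead of Spp1 at 424 ± 25 and Cd68 at 206 ± 21 RPKM. In culture CD71+ libraries Spp1 averaged 349 ± 98 RPKM, Lgals3 183 ± 49, Cd9 113 ± 27, Cd68 82.4 ± 28, Gpnmb 48.0 ± 9.9 and Cd63 22.8 ± 2.5 RPKM. In culture CD71− libraries Lgals3 came first at 171 ± 44 RPKM, followed by Cd9 at 58.9 ± 4.2, Spp1 at 47.6 ± 3.6 and Cd68 at 35.1 ± 2.7 RPKM. Neighbours in these orders kept apart in every library except Cd9 and Cd68 in culture CD71+ cells, whose values overlapped. Among 21951 protein-coding genes, Spp1 ranked 26 and 35 in the culture CD71+ libraries, 63 and 73 in tumour CD71+, 120 and 139 in tumour CD71− and 445 and 596 in culture CD71− libraries. Gpnmb ranked 376 and 466 in culture CD71+ and between 2747 and 3819 in the tumour libraries.

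**Figure D1:**
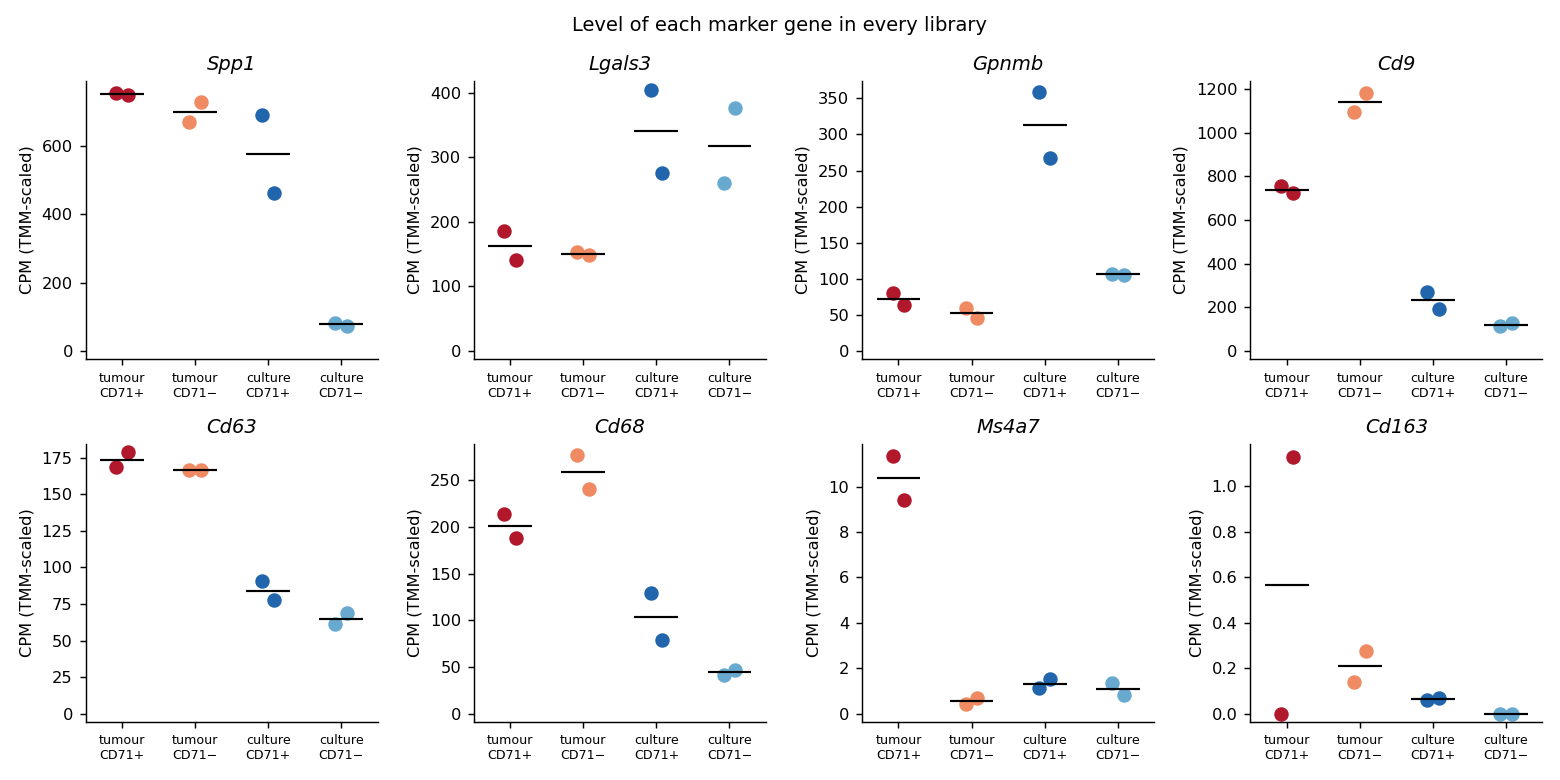
Level of each of the 8 genes in CPM (TMM-scaled, y axis, own scale per panel) in the 2 libraries of each group (points), with the group mean as a line. Spp1 was low in the culture CD71− libraries alone (74.2 and 82.6 CPM), Gpnmb was highest in culture CD71+ libraries (267 and 358 CPM), and Ms4a7 stood out in tumour CD71+ libraries (9.41 and 11.3 CPM).

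In the tumour, Ms4a7 was higher and Cd9 lower in CD71+ than in CD71− neutrophils, and the other 5 tested markers did not pass. Of the 7 genes with enough counts to be tested, 1 passed as higher in CD71+ cells, where 26.2% of the 15975 tested genes did, and 1 passed as lower, where 17.3% of genes did. Many genes differed in this comparison, so neither member count stood above the background.

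Ms4a7, a macrophage-associated MS4A gene, had 118 and 100 counts (11.3 and 9.41 CPM) in tumour CD71+ libraries, against 3 and 5 counts (0.419 and 0.693 CPM) in tumour CD71− libraries. Both CD71+ libraries lay far above both CD71− libraries. Its fitted log2 fold change was 4.20 ± 0.52 (SE, adjusted p = 5.36e-05), or 4.07 relative to the median of all genes. The ratio of summed counts was 18.6, with an exact 95% interval of 9.29 to 43.7 that covers counting error only. Even at its highest it remained a low gene, ranked 6917 and 7370 among protein-coding genes.

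Cd9, which organises integrins and proteases in the membrane, was at 754 and 722 CPM in tumour CD71+ libraries, against 1096 and 1183 CPM in tumour CD71− libraries. Its log2 fold change was -0.63 ± 0.18 (adjusted p = 0.0133), and -0.76 relative to the median of all genes. With either tumour CD71+ library left out the fall did not pass (adjusted p = 0.0528 without replicate 1 and 0.0775 without replicate 2), nor with total counts (-0.07), and Cd9 was higher, at 0.41, when scaled on mature neutrophil genes. Cd68 was at 214 and 188 CPM in CD71+ and at 277 and 241 CPM in CD71− libraries, so every CD71+ value was the lower. Its log2 fold change of -0.37 ± 0.21 did not pass (adjusted p = 0.173), but passed as lower with DESeq2 size factors (-0.59) and turned to 0.66 on the mature neutrophil scale.

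The other 4 tested members did not pass in the tumour. Spp1 was at 756 and 749 CPM in tumour CD71+ libraries, against 669 and 728 CPM in tumour CD71− libraries. The values of both groups lay close, with a log2 fold change of 0.11 ± 0.19 (adjusted p = 0.679). Lgals3 was at 186 and 140 CPM in CD71+ and 153 and 149 CPM in CD71− libraries, which overlapped (log2 fold change 0.11 ± 0.23). Cd63 was at 169 and 179 CPM in CD71+ and 167 and 166 CPM in CD71− libraries (0.06 ± 0.16). Relative to the median of all genes these 3 genes were at -0.02, -0.02 and -0.07 on the log2 scale. Gpnmb was at 80.0 and 63.8 CPM in CD71+ and 59.9 and 46.0 CPM in CD71− libraries, a log2 fold change of 0.44 ± 0.20 (adjusted p = 0.0871). It passed as higher with a filter at a mean of 5 CPM (0.54, adjusted p = 0.0393) and with the replicate number as a block (adjusted p = 0.0357). With total counts and with mature neutrophil genes as the scale, 5 and 6 of the 7 members passed as higher, as the medians of all genes moved up with them. Of the 15975 tested genes, 6787 and 9282 passed as higher under these scalings.

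Cd163 had 0 and 12 counts in the tumour CD71+ libraries, against 1 and 2 counts in the tumour CD71− libraries. In culture it had 2 counts in each CD71+ library, against 0 in each CD71− library. A count of 0 allows up to 3 counts, which is 0.0915 to 0.419 CPM depending on the library. The 12 counts of 1 tumour library were the only ones above that floor. The other 7 libraries held 0 to 2 counts each, and Cd163 had too few counts to be tested.

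In culture, 4 of the markers rose in CD71+ neutrophils: Spp1, Gpnmb, Cd68 and Cd9. That is 4 of 7 tested members passing as higher, where 7.88% of all tested genes did, and 0 passing as lower, where 8.36% did. For the members, 0 also fell at an unadjusted p under 0.05. The rises of all 4 held under each of the 4 scalings.

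Spp1 was at 689 and 462 CPM in culture CD71+ libraries, against 82.6 and 74.2 CPM in culture CD71− libraries. The groups were far apart, with a 7.34-fold rise (log2 fold change 2.88 ± 0.21, adjusted p = 3.44e-06). Gpnmb was at 358 and 267 CPM in CD71+ and at 107 and 106 CPM in CD71− libraries. This was a 2.94-fold rise (log2 fold change 1.56 ± 0.20, adjusted p = 0.000181). Cd68 was at 129 and 78.5 CPM in CD71+ and at 41.7 and 46.5 CPM in CD71− libraries, a 2.35-fold rise (1.23 ± 0.22, adjusted p = 0.0018). Cd9 was at 270.2 and 193 CPM in CD71+ and at 114 and 126 CPM in CD71− libraries (0.94 ± 0.18, adjusted p = 0.00336). No group overlapped for these 4 genes, but the CD71+ replicates differed from each other, with replicate 1 higher for each of them. Without culture CD71+ replicate 1 the rise of Cd9 did not pass (log2 fold change 0.70, adjusted p = 0.0831).

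Lgals3, Cd63 and Ms4a7 did not pass in culture. Lgals3 was at 405 and 276 CPM in CD71+ libraries and at 261 and 376 CPM in CD71− libraries, so the groups overlapped widely (0.10 ± 0.22, adjusted p = 0.814). Cd63 was at 90.4 and 77.6 CPM in CD71+ and at 61.3 and 68.5 CPM in CD71− libraries (0.37 ± 0.16, adjusted p = 0.13), and passed as higher with total counts (0.69, adjusted p = 0.0112). Ms4a7 was at 1.13 and 1.52 CPM in CD71+ and at 1.36 and 0.816 CPM in CD71− libraries (0.24 ± 0.44). The mature neutrophil scale brought all 7 tested members past the threshold as higher, with a median of all genes of 1.06. On that scale 10063 of the 15975 tested genes passed as higher in culture.

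**Figure D2:**
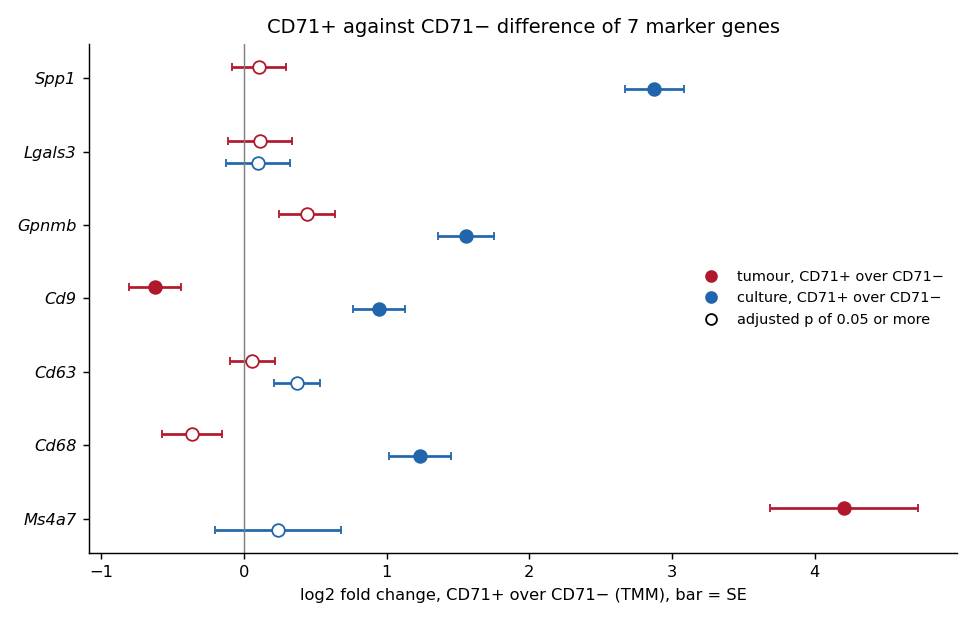
Log2 fold change of CD71+ over CD71− neutrophils (x axis, TMM scale) for the 7 tested genes, in the tumour (red, upper point of each row) and in culture (blue, lower point), with the standard error as a bar. Open points had an adjusted p of 0.05 or more. Spp1 was at 0.11 in the tumour and 2.88 in culture, while Ms4a7 was at 4.20 in the tumour and 0.24 in culture.

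The CD71 differences of the tumour and of culture were set against each other in 1 term of the same fit. It is negative where the tumour difference was the lower. Of the 7 members, 4 passed as lower, where 4.71% of all tested genes did, and 1 as higher, where 10.8% did. Spp1 had a difference of -2.77 ± 0.28 on the log2 scale (adjusted p = 0.000123), Cd68 of -1.60 ± 0.30 (adjusted p = 0.00396), Cd9 of -1.57 ± 0.26 (adjusted p = 0.00187) and Gpnmb of -1.11 ± 0.28 (adjusted p = 0.0163). For Cd9 the tumour value was below 0 and the culture value above it. Ms4a7 passed the other way, at 3.96 ± 0.70 (adjusted p = 0.00284). The call of Gpnmb was lost when 1 of 3 libraries was left out, with adjusted p of 0.0645 without tumour CD71+ replicate 2, 0.0539 without tumour CD71− replicate 1 and 0.0969 without culture CD71+ replicate 1. Lgals3 at 0.02 ± 0.32 and Cd63 at -0.31 ± 0.23 did not pass.

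Between origins, 6 of the 7 tested members passed in CD71− cells and 6 in CD71+ cells. In CD71− cells, tumour libraries had more Spp1, Cd9, Cd68 and Cd63 RNA and less Gpnmb and Lgals3 RNA than culture libraries. That made 4 of 7 members passing as higher, where 30.3% of all tested genes did, and 2 passing as lower, where 36.8% did. Cd9 was 9.47-fold higher (log2 fold change 3.24 ± 0.20, adjusted p = 6.7e-09) and Spp1 8.91-fold higher (3.16 ± 0.21, adjusted p = 1.43e-08). Cd68 followed at 2.55 ± 0.22 and Cd63 at 1.36 ± 0.16. Gpnmb was lower, at -1.01 ± 0.20 (adjusted p = 0.000501), as was Lgals3, at -1.08 ± 0.23 (adjusted p = 0.000875). Relative to the median of all genes the 6 values were 3.53 for Cd9, 3.44 for Spp1, 2.84 for Cd68, 1.64 for Cd63, -0.72 for Gpnmb and -0.79 for Lgals3. Cd63 turned to -0.50 on the mature neutrophil scale. Ms4a7, with 8 counts over both tumour CD71− libraries and 32 over both culture CD71− libraries, did not pass (adjusted p = 0.159), but passed as lower with total counts (-1.91, adjusted p = 0.0108) and on the mature neutrophil scale (-2.80).

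In CD71+ cells, tumour libraries had more Ms4a7, Cd9, Cd63 and Cd68 RNA and less Gpnmb and Lgals3 RNA than culture libraries. Again 4 of 7 members passed as higher, where 30.3% of all tested genes did, and 2 as lower, where 27.6% did. Ms4a7 was 7.82-fold higher (log2 fold change 2.97 ± 0.40, adjusted p = 2.5e-05) and Cd9 was 3.19-fold higher (1.67 ± 0.19, adjusted p = 3.79e-06). Cd63, at 1.05 ± 0.16, and Cd68, at 0.95 ± 0.21, did not pass with total counts (0.37 and 0.28). On the mature neutrophil scale Cd9 (-0.16), Cd63 (-0.80) and Cd68 (-0.87) turned lower. Gpnmb was 4.35-fold lower in tumour CD71+ than in culture CD71+ cells (-2.12 ± 0.20, adjusted p = 7.74e-07), and Lgals3 was 2.08-fold lower (-1.06 ± 0.23, adjusted p = 0.00121). Spp1 did not pass (0.39 ± 0.19, adjusted p = 0.0971); it passed without culture CD71+ replicate 1 (0.67, adjusted p = 0.0284) and fell below 0 with total counts (-0.29) and on the mature neutrophil scale (-1.44). The tumour and culture comparisons share their CD71 groups, so their values are not independent of each other.

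**Figure D3:**
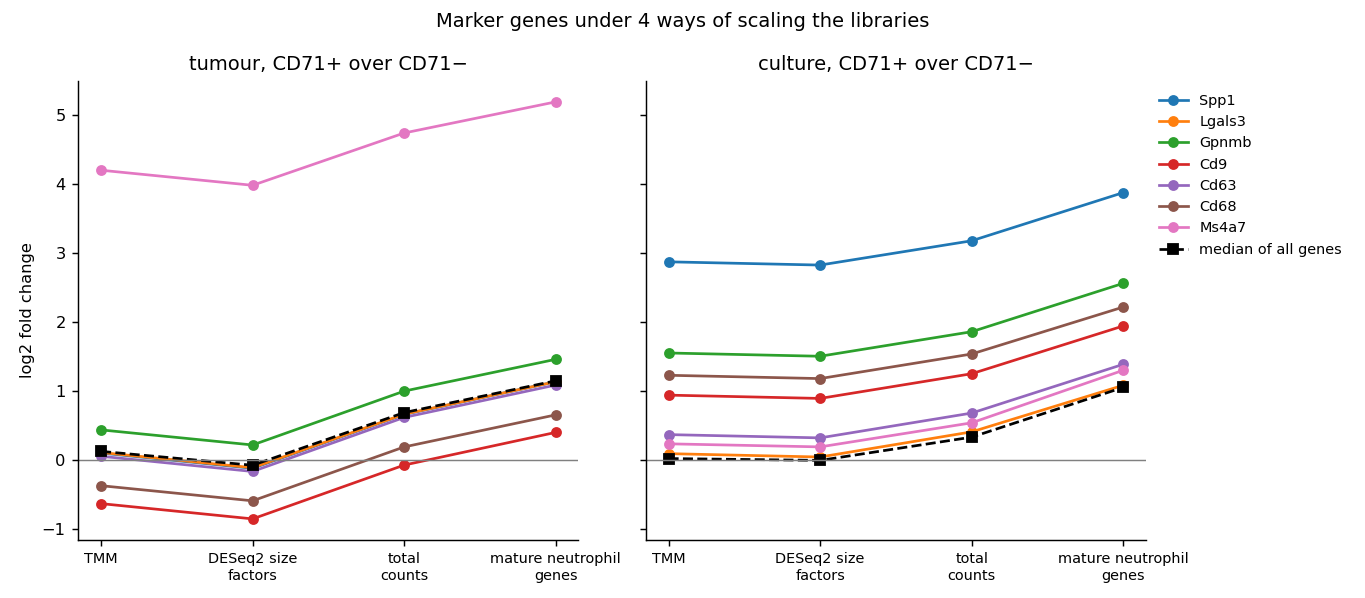
Log2 fold change of CD71+ over CD71− neutrophils (y axis) under 4 scalings of the libraries (x axis) for the 7 tested genes and for the median of all genes (dashed), in the tumour (left) and in culture (right). The lines run side by side. In the tumour Spp1, Lgals3 and Cd63 lie on the median of all genes and Cd9 and Cd68 below it. Gpnmb lies 0.31 above it there with TMM, and Ms4a7 far above it. In culture Spp1, Gpnmb, Cd68 and Cd9 lie above it. Cd63 (0.35), Ms4a7 (0.21) and Lgals3 (0.07) lie less far above it there with TMM.

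Counts of each marker were also set against the summed counts of the 14 macrophage identity genes of the same library, a ratio that no scaling changes. For every tested member except Ms4a7 the ratio was lower in tumour CD71+ than in tumour CD71− libraries, with no overlap. The same held for 82.0% of all tested genes, and the macrophage identity sum was itself 3101 to 3582 CPM in tumour CD71+ against 530.2 to 539 CPM in tumour CD71− libraries, so 6 of 7 members says little about them. The ratio of Ms4a7 was higher without overlap, as it was for 3.63% of all tested genes. Per 100 macrophage identity counts there were 24.4 and 20.9 Spp1 counts in tumour CD71+ libraries, against 124 and 137 in tumour CD71− libraries. Cd9 had 24.3 and 20.2 in tumour CD71+ and 203 and 223 in tumour CD71− libraries. Cd68 had 6.90 and 5.24 in tumour CD71+ and 51.4 and 45.4 in tumour CD71− libraries. The tumour CD71− libraries held the least macrophage identity RNA of the 4 groups and the highest ratios of these 3 genes. A small sum raises the ratio of any gene, and how many of all genes were highest there was not counted. Cd63 was highest there too, at a mean of 31.2. Gpnmb (9.89) and Lgals3 (28.2) were lower there than in culture CD71− libraries (14.4 and 42.8), and Ms4a7 was highest in tumour CD71+ libraries. For Ms4a7 the tumour ratio was 0.366 and 0.263 in CD71+ and 0.0777 and 0.131 in CD71− libraries.

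In culture the Spp1 ratio was 62.4 and 46.9 in CD71+ and 11.4 and 9.82 in CD71− libraries, and that of Gpnmb averaged 29.8 in CD71+ and 14.4 in CD71− libraries. The CD71+ libraries were the higher for both, as they were for Cd68 (11.7 and 7.97 in CD71+, 5.74 and 6.16 in CD71−). The Cd9 ratio was 24.5 and 19.6 in culture CD71+ and 15.7 and 16.7 in culture CD71− libraries. These 4 members lay higher without overlap, as 14.7% of all tested genes did. For Cd63 the ratio was lower in CD71+ libraries without overlap, as it was for 52.5% of all tested genes. It was 8.19 and 7.88 in culture CD71+ and 8.43 and 9.07 in culture CD71− libraries. Spp1 RNA was thus 5.16-fold higher in culture CD71+ than in culture CD71− cells per unit of macrophage identity RNA, beside 7.34-fold on the TMM scale. The 14 summed genes did not move alike in culture. There 9 passed as higher and 1, Maf (-1.48), as lower, where 7.88% and 8.36% of all tested genes did. Their median log2 fold change of 1.98 lay below that of Spp1 (2.88) and above those of Gpnmb (1.56), Cd68 (1.23) and Cd9 (0.94).

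**Figure D4:**
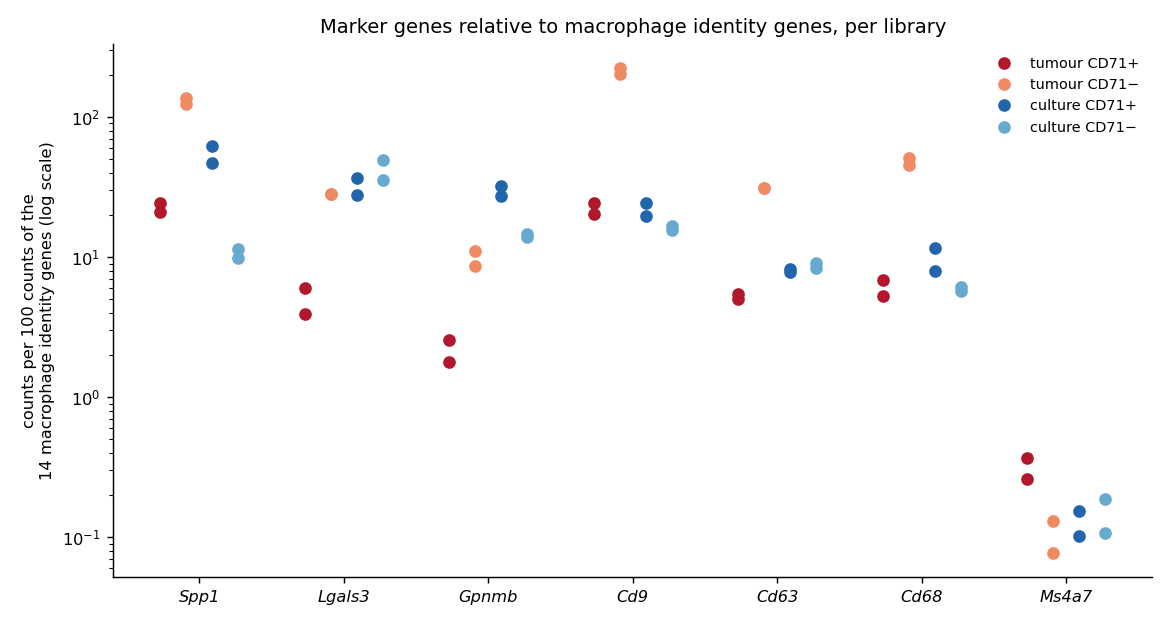
Counts of each gene per 100 counts of the 14 macrophage identity genes (y axis, log scale) in each library (points), coloured by group. The 7 tested genes are drawn. Tumour CD71+ libraries lie below tumour CD71− libraries for each of them but Ms4a7, and culture CD71+ libraries lie above culture CD71− libraries for Spp1, Gpnmb, Cd9 and Cd68.

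The counts of the gene lists that follow stand beside the shares of all tested genes already given, 26.2% higher and 17.3% lower in tumour CD71+ cells and 7.88% higher and 8.36% lower in culture CD71+ cells. A list count near these shares is no result about the list. Where scaling on total counts, which lifts the median of all genes, took the falls away, the numbers passing under it are added for some lists. Those numbers have another background. With total counts, 6787 of the 15975 tested genes passed as higher and 491 as lower in tumour CD71+ cells. In culture CD71+ cells 2617 passed as higher and 618 as lower.

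Among the relatives of Cd9 and Cd63, 17 tetraspanins were tested, the pair included. In the tumour 5 passed as higher in CD71+ cells, near the background of 26.2%, and 7 as lower (7 and 0 with total counts), with a median log2 fold change of -0.28 beside 0.13 for all genes. Cd81, a broadly expressed partner of CD9, rose (2.89 ± 0.22), while Cd53, a leukocyte tetraspanin, fell like Cd9 (-0.66 ± 0.20). The fall of Cd53 was lost when either CD71+ library (adjusted p of 0.0814 and 0.0668) or replicate 2 of CD71− (0.0674) was left out and with total counts (-0.10), and turned to 0.38 on the mature neutrophil scale. In culture 4 tetraspanins passed as higher and 1 as lower (median 0.44), and there Cd53 (0.86 ± 0.20) and Cd81 (0.75 ± 0.20) both rose. Neither rise passed without culture CD71+ replicate 1 (0.69 and 0.57), nor that of Cd81 without culture CD71− replicate 1 (0.66). Cd9 took 22.6% to 23.7% of the summed tetraspanin RPKM in tumour CD71+, 23.5% to 25.1% in tumour CD71−, 17.2% to 19.3% in culture CD71+ and 14.2% to 16.5% in culture CD71− libraries. Cd63 took 1.84% to 4.97% across all libraries. Of 9 genes of tetraspanin partners, such as integrins and sheddases, 4 passed as higher in tumour CD71+ and 3 in culture CD71+ cells, with 0 lower in either, beside 26.2% and 7.88% of all tested genes passing as higher.

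Of the galectins and the galectin-binding protein gene Lgals3bp, 6 were tested. In the tumour 2 passed as higher and 2 as lower: Lgals3bp (3.62 ± 0.20) and Lgals1 (1.88 ± 0.41) rose while Lgals3 did not pass. The rise of Lgals1 was lost without tumour CD71− replicate 2 (1.55, adjusted p = 0.0608). In culture the same pair passed, Lgals3bp at 2.04 ± 0.19 and Lgals1 at 1.34 ± 0.41 (adjusted p = 0.0481), and Lgals3 again did not. The culture call of Lgals1 was lost without any 1 of 5 libraries, which were both tumour CD71− libraries (1.32 each), both culture CD71+ libraries (1.04 without replicate 1 and 1.60 without replicate 2) and culture CD71− replicate 1 (0.76). Without culture CD71− replicate 2 the value was 2.24 and passed, and with DESeq2 size factors (adjusted p = 0.0525) and in a fit on the compared libraries (0.0968) it did not. Lgals3 took 33.2% to 37.4% of the summed RPKM of the 7 galectin genes, without Lgals3bp, in tumour CD71+, 36.5% to 37.2% in tumour CD71−, 74.8% to 77.7% in culture CD71+ and 73.9% to 81.5% in culture CD71− libraries. Its share lay apart between the origins and overlapped between the sort fractions of each.

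Of 8 MS4A genes tested, 6 passed as higher in tumour CD71+ cells and 0 as lower, with a median of 3.25 (at an unadjusted p under 0.05 also 0 were lower). Besides Ms4a7 these included Ms4a4a (3.03 ± 0.34), Ms4a6b (3.45 ± 0.41) and Ms4a6d (2.68 ± 0.23), all expressed in macrophages and monocytes. In culture 2 passed as higher, with Ms4a6d at 2.28 ± 0.31. Ms4a7 took 1.12% to 1.68% of the summed MS4A RPKM in tumour CD71+ and 0.454% to 0.695% in tumour CD71− libraries. In culture its share was 5.86% to 6.46% in CD71+ and 8.74% to 16.0% in CD71− libraries, the other order. The summed level of the 11 MS4A genes was 270.5 to 356 CPM in tumour CD71+, 34.6 to 42.1 CPM in tumour CD71−, 8.63 to 10.9 CPM in culture CD71+ and 4.71 to 4.86 CPM in culture CD71− libraries. This rise ran beside that of the macrophage identity genes, of which 14 of 14 passed as higher in tumour CD71+ cells, Mrc1 (4.25 ± 0.27) and Mertk (4.16 ± 0.38) the most. Of the 10 microglia genes 10 passed as higher there too.

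**Figure D5:**
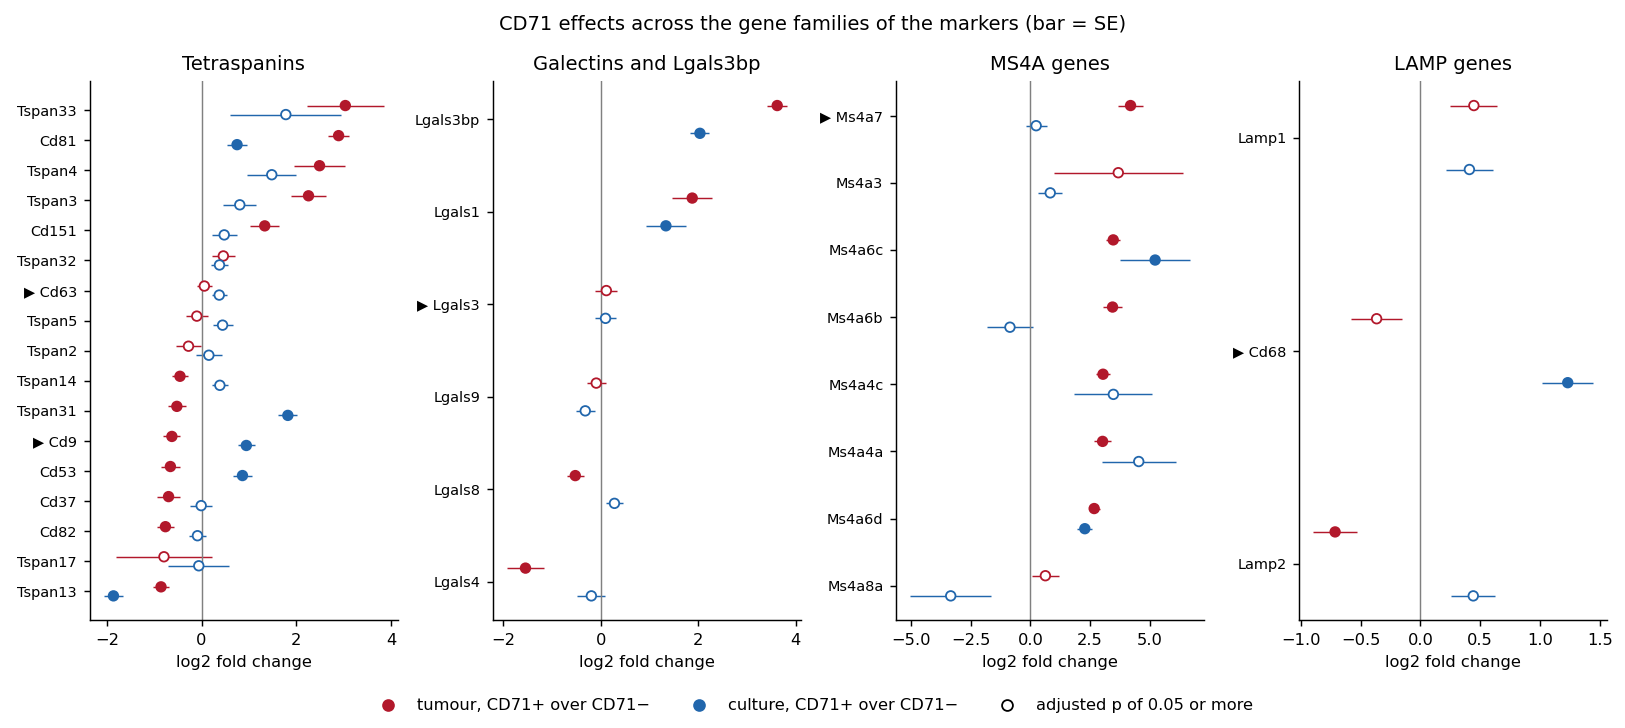
Log2 fold change of CD71+ over CD71− neutrophils (x axis, TMM scale, with the standard error) for all tested tetraspanins, galectins, MS4A and LAMP genes in the tumour (red) and in culture (blue). Open points had an adjusted p of 0.05 or more and a triangle beside a name marks Cd63, Cd9, Lgals3, Ms4a7 and Cd68. Ms4a7 lies among MS4A genes that passed as higher in the tumour, whereas Cd9, Cd63, Lgals3 and Cd68 lie below Cd81, Lgals3bp and Lamp1 of their families there. Each also lies above others of its family: Cd9 and Cd63 above Tspan13 and Cd82, Lgals3 above Lgals4 and Lgals8, and Cd68 above Lamp2.

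Of the 3 LAMP genes tested beside and including Cd68, 1 passed in the tumour. Lamp2, a lysosomal membrane protein needed for autophagy, fell in CD71+ cells (-0.71 ± 0.18), which total counts (-0.16) and the mature neutrophil scale (0.32) ended, and Lamp1 did not pass (0.45 ± 0.20, adjusted p = 0.0798). Lamp1 passed as higher with total counts (1.01), on the mature neutrophil scale (1.48), with no filter (adjusted p = 0.0406), with the filter at 5 CPM (0.0363), with the replicate block (0.0431) and in a fit on the compared libraries (0.0167). In culture neither Lamp1 (0.41 ± 0.20) nor Lamp2 (0.44 ± 0.18) passed beside the rise of Cd68. Both passed as higher with total counts (0.72 and 0.75) and on the mature neutrophil scale (1.40 and 1.47), and Lamp2 also with the replicate block (adjusted p = 0.0398) and without culture CD71− replicate 1 (0.67, adjusted p = 0.0244). Cd68 took 39.3% to 44.1% of the summed LAMP family RPKM in tumour CD71+, 44.2% to 50.1% in tumour CD71−, 30.5% to 32.8% in culture CD71+ and 20.9% to 21.1% in culture CD71− libraries. Of 20 lysosome genes, 7 passed as higher and 6 as lower in tumour CD71+ cells (10 and 0 with total counts), with Ctss, a cathepsin of antigen processing, at 2.86 ± 0.24. In culture 12 passed as higher and 0 as lower, among them Atp6v0d2, a subunit of the lysosomal proton pump (1.64 ± 0.24), and Ctss (1.54 ± 0.23).

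For the receptors of osteopontin, 9 genes were tested, and 2 passed as higher and 2 as lower in tumour CD71+ cells, near the background of 26.2% and 17.3% (6 and 0 with total counts). Itgb5 (2.95 ± 0.25) and Itga9 (3.61 ± 0.42), subunits of osteopontin-binding integrins, rose, and Cd44 fell (-0.67 ± 0.19). The fall of Cd44 did not pass without tumour CD71+ replicate 2 (-0.63, adjusted p = 0.0909) or with total counts (-0.11), and turned to 0.36 on the mature neutrophil scale. In culture 3 passed as higher and 1, Itgb3, as lower. There Itga4 (1.61 ± 0.18), Itgb5 (1.02 ± 0.24) and Itgb1 (0.86 ± 0.16) rose like Spp1, though Itgb5 (0.87) and Itgb1 (0.75) did not pass without culture CD71+ replicate 1, while Cd44 did not pass (0.23 ± 0.19). Cd44 was higher in tumour than in culture cells, at 3.24 ± 0.21 in CD71− and 2.34 ± 0.20 in CD71+ cells.

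Around Gpnmb, 6 genes of its kin, receptors and MiT family regulators were tested, of which 1 passed as higher and 2 as lower in the tumour and 2 as higher and 0 as lower in culture. Both falls in the tumour, of Cd44 and Tfe3, were lost with total counts (-0.11 and 0.014). Sdc4, a syndecan that binds GPNMB, rose in tumour CD71+ cells (2.50 ± 0.24) and in culture CD71+ cells (0.73 ± 0.22). Tfec, a MiT family transcription factor of myeloid cells, rose in culture (0.71 ± 0.20) and was lower in tumour than in culture cells, at -1.84 ± 0.23 in CD71− and -2.44 ± 0.22 in CD71+ cells. Tfe3, another MiT factor, fell in tumour CD71+ cells (-0.55 ± 0.16) and was higher in tumour than in culture cells, at 0.97 ± 0.16 in CD71− and 0.65 ± 0.16 in CD71+ cells, the opposite order to Tfec. The fall of Tfe3 was lost without tumour CD71+ replicate 2 (-0.51, adjusted p = 0.081). With total counts none of the 3 Tfe3 values passed (0.014, 0.040 and -0.032), and on the mature neutrophil scale each changed sign (0.48, -0.89 and -1.22). The culture rises of Sdc4 and Tfec did not pass without culture CD71+ replicate 1 (0.67 and 0.65) or replicate 2 (0.81 and 0.79), nor that of Sdc4 without culture CD71− replicate 1 (0.62), nor that of Tfec without culture CD71− replicate 2 (0.63). Sdc4 was lower in tumour CD71− than in culture CD71− cells (-2.05 ± 0.24) and did not pass between CD71+ cells (-0.29 ± 0.22). Between CD71+ cells it passed as lower with total counts (-0.97) and on the mature neutrophil scale (-2.14).

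Beside Cd163, 7 scavenger receptor genes were tested, of which 5 passed as higher and 1 as lower in tumour CD71+ cells. Msr1, the class A scavenger receptor of foam cells, rose in the tumour (3.19 ± 0.20) and in culture (2.06 ± 0.18), and Stab1, a receptor of tissue macrophages, rose in the tumour (2.20 ± 0.20). Of 8 haemoglobin clearance genes, 2 passed as higher and 2 as lower in the tumour, near the background of 26.2% and 17.3%. Hp, the haptoglobin gene, was lower in CD71+ cells of the tumour (-1.05 ± 0.18) and of culture (-0.75 ± 0.18), as was the iron exporter Slc40a1 (-1.13 ± 0.18 in the tumour and -1.28 ± 0.18 in culture). The culture fall of Hp did not pass without culture CD71+ replicate 2 (-0.56) or with total counts (-0.45), and turned to 0.26 on the mature neutrophil scale. On that scale the tumour value of Hp was -0.015 and did not pass (adjusted p = 0.965), and neither did those of Slc40a1 (-0.10 in the tumour and -0.25 in culture).

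A wider list of 28 foam-cell and lipid-associated macrophage genes, which holds none of the 8, had 15 members passing as higher and 5 as lower in tumour CD71+ cells (median 0.63), and 19 and 0 with total counts. In culture 18 passed as higher and 1 as lower (median 1.02, beside 0.03 for all genes). Axl, a receptor for dying cells, rose in both (3.40 ± 0.24 in the tumour and 3.91 ± 0.29 in culture), as did Lpl, which frees fatty acids from lipoproteins, in the tumour (3.43 ± 0.28), and Mmp12, the macrophage elastase, in culture (3.63 ± 0.28). Itgax, which encodes CD11c, fell in the tumour (-0.76 ± 0.24), as did the lipid droplet gene Plin2 (-0.69 ± 0.17). The fall of Itgax was lost when replicate 2 of CD71+ (-0.57) or replicate 1 of CD71− (-0.42) was left out. With total counts neither passed (-0.20 for Itgax and -0.13 for Plin2), and both turned above 0 on the mature neutrophil scale (0.25 and 0.33). Of 21 tested tumour and tissue macrophage genes, 18 passed as higher in tumour CD71+ cells and 3 as lower (median 3.03), and 11 as higher and 2 as lower in culture. The summed level of the list's 24 genes was nevertheless lower in tumour CD71+ libraries (24231.7 to 28786.5 CPM) than in tumour CD71− libraries (36914.4 to 42251.1 CPM). That sum was computed on the TMM scale only. Among mature neutrophil genes, 16 of 20 fell in tumour CD71+ cells and 9 of 20 in culture CD71+ cells. Csf3r, the receptor of granulocyte colony-stimulating factor, was at -1.37 ± 0.19 in the tumour and -2.33 ± 0.19 in culture. With total counts 3 of the 20 fell in the tumour and 7 in culture.

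The stretches of 250 bases before the start of transcription are printed for Spp1, Cd68 and Cd9, which rose together in culture CD71+ cells and were higher in tumour than in culture CD71− cells, and for Ms4a7, which passed in neither comparison. They are RefSeq sequences of build GRCm38.p6, read 5′ to 3′ on the strand of the gene, at chr5:104434861-104435110 (+) for Spp1, chr11:69666171-69666420 (−) for Cd68, chr6:125494761-125495010 (−) for Cd9 and chr19:11336147-11336396 (−) for Ms4a7. Capitals mark matches, on either strand, to CACGTG (E-box), TCATGTG (M-box, bound by MiT factors), TGAGTCA (AP-1), GAGGAAG (PU.1) or TTGCNNAA (C/EBP).
Spp1: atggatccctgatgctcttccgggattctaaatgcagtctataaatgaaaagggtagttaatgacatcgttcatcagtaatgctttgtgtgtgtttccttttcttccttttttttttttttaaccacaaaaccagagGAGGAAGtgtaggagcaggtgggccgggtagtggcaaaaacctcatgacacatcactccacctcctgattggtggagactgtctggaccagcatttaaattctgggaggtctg
Cd68: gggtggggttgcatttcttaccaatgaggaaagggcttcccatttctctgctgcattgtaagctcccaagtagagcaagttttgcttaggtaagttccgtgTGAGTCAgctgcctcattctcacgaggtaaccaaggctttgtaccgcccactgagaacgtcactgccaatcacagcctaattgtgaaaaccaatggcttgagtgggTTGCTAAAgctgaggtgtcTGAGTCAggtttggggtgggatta
Cd9: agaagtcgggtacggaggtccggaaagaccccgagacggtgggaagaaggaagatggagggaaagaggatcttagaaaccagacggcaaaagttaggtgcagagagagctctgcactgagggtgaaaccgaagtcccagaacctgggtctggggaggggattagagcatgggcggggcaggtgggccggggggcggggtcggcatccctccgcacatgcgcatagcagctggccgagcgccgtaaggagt
Ms4a7: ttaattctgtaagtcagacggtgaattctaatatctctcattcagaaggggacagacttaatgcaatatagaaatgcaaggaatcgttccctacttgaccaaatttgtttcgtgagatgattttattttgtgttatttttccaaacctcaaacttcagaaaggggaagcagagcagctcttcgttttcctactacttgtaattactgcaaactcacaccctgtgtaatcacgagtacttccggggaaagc

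The Cd68 stretch held 2 AP-1 matches, starting 149 and 24 bases before the start, and 1 C/EBP match starting 43 bases before it. The Spp1 stretch held 1 PU.1 match, starting 113 bases before the start, and the Cd63 stretch held 1 on the other strand, 60 bases before it. Those of Cd9, Ms4a7, Gpnmb, Lgals3 and Cd163 held none of the 5 motifs. No 2 of these matches overlapped. Among 32851 promoter stretches of that length, 4.46% held the AP-1 letters, 10.6% those of PU.1, 9.56% those of C/EBP, 6.02% the E-box and 3.25% the M-box. RefSeq gives a further start for Spp1, with 1 C/EBP match, and for Ms4a7, with none.

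By position in GRCm38 (mm10), Spp1 lies on chromosome 5 (104435118 to 104441050, plus strand) and Cd68 on chromosome 11 (69664213 to 69666153, minus strand). Gpnmb, Cd9 and Cd163 share chromosome 6, at 49036546 to 49070929, 125460266 to 125494791 and 124304656 to 124330527. Lgals3 lies on chromosome 14 (47367751 to 47386160), Cd63 on chromosome 10 (128900989 to 128912822) and Ms4a7 on chromosome 19 (11321039 to 11336146). Of the 1648 exonic bases of Spp1, 309 are shared on the same strand with Gm42793, which had 34 to 440 counts per library beside 818 to 22603 for Spp1. Of the 2044 exonic bases of Cd9, 218 lie opposite Gm26728, which had 11 to 104 counts. The pseudogene copies Cd63-ps and Cd9-ps had 7 to 33 and 0 to 3 counts. How many reads of Cd63, Cd9 and Spp1 were shared with these copies or neighbours was not measured.

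Genes whose log2 CPM ran most like each member over the 8 libraries were found among 9763 genes with a mean of at least 5 CPM, by Pearson's r. The libraries fall into 2 origins, so a gene that separates the origins scores high, and these values are a description. Nearest to Spp1 were Tmed10 (0.987), March8 (0.978) and Acsl4 (0.976), and nearest to Gpnmb were Lpcat3 (0.988), Ramp1 (0.980) and Arhgap6 (0.977). Acsl4 and Lpcat3 encode enzymes that build polyunsaturated phospholipids, but they were neighbours of different members. Spp1 and Gpnmb did not run alike (r of -0.0996). Cd9 ran most like Acsl5 (0.998), Saa3 (0.998) and Il1rn (0.997), and Cd63 like Tor3a (0.998), Epsti1 (0.996) and Slfn9 (0.996). For Cd68 they were Ssr3 (0.990), Twsg1 (0.986) and Tomm20 (0.986), and for Lgals3 Vapb (0.975), Dap (0.975) and Capg (0.974). Ms4a7 ran most like Olfml3 (0.983), Fcgr1 (0.977) and Scoc (0.976), of which Fcgr1 is in the macrophage identity list and Olfml3 in the microglia list.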

How the data were processed

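Whole-number read counts per gene for 8 libraries were used as the authors deposited them. Per the labels' protocols, libraries came from total RNA with ribosomal RNA removed, with a stranded kit. Per the submitters' processing notes, the tools were FastQC, cutadapt, STAR, featureCounts and DESeq2 with build mm10; their versions and settings, the strand setting of the counting included, are not given in the sources used here. All 55450 gene IDs matched GENCODE release M21. The counts went into edgeR 4.0.16 in R 4.3.3, where filterByExpr left 15975 genes, libraries were scaled by TMM, 1 model of 4 group means was fitted robustly to all 8 libraries, and quasi-likelihood tests with Benjamini-Hochberg adjustment over all genes were run for 5 comparisons, with a gene passing at an adjusted p under 0.05. Values after ± are standard errors of log2 fold changes. The fit was tested on simulated data. RPKM used exonic lengths. Alternatives were DESeq2 1.42.0 and its size factors, total counts, scaling on mature neutrophil genes, 2 filters, fits on the compared libraries, a replicate block and leaving out each library. Named were the 8 members, Tfrc, genes of the family, receptor and partner lists and, from other lists, up to 2 largest rises and falls among genes that passed, averaged at least 5 CPM and had groups that do not overlap. The members and lists were chosen with earlier results of these data known. Intervals and floors cover counting error only, and reads carry no molecular identifiers. No replicate pair held identical values.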

Additional observations from a re-analysis of the deposited data

Results flagged for a closer look

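The CD71+ against CD71− difference was not the same in the tumour as in culture for 5 of the 7 tested genes, by the interaction term of edgeR's fit. The tumour minus culture value was -2.77 on the log2 scale for Spp1, -1.60 for Cd68, -1.57 for Cd9 and -1.11 for Gpnmb, and 3.96 for Ms4a7. Of all 15975 tested genes, 4.71% passed as lower and 10.8% as higher in this term. The call of Gpnmb was lost when replicate 2 of tumour CD71+ (adjusted p = 0.0645), replicate 1 of tumour CD71− (0.0539) or replicate 1 of culture CD71+ (0.0969) was left out. Relative to the median of all genes these values were -2.95 for Spp1, -1.78 for Cd68, -1.75 for Cd9, -1.29 for Gpnmb and 3.78 for Ms4a7.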

How the results depend on the processing

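The calls of Spp1, Gpnmb, Cd68 and Cd9 in culture and of Ms4a7 in the tumour passed under every alternative that tested them, except Cd9 without culture CD71+ replicate 1. With 2 libraries a group, leaving out 1 leaves a lone sample assumed to vary like the other groups. Where a value moved, the cause was not tested, other than the shift of all genes given with each scaling.
Total counts moved the members passing higher to 5 and lower to 0 in the tumour, and higher to 2 between CD71+ cells of tumour and culture. All genes passing became 6787 higher and 491 lower for tumour CD71, 2617 and 618 for culture CD71 (where Cd63 joined the members passing higher), and 2733 and 395 for the difference of both. They became 2994 higher and 8840 lower for tumour against culture in CD71− cells, and 7949 lower in CD71+ cells. Cd68 turned to 0.19 and Tfe3 to 0.014 in the tumour, Spp1 to -0.29 and Tfe3 to -0.032 between CD71+ cells and Tfrc to -0.38 between CD71− cells.
The mature neutrophil scale gave 6 members higher and 0 lower in the tumour, 7 higher in culture, 4 lower between CD71− cells, and 1 higher and 5 lower between CD71+ cells. All genes passing became 9282 and 29, 10063 and 171, 1775 and 11048, and 1797 and 11632 for these comparisons, higher count first. In the tumour Cd9 turned to 0.41, Cd68 to 0.66, Tfrc to 0.38, Cd53 to 0.38, Lamp2 to 0.32, Cd44 to 0.36, Plin2 to 0.33, Tfe3 to 0.48 and Itgax to 0.25, and in culture Hp to 0.26. Between CD71− cells Cd63 turned to -0.50, Tfe3 to -0.89 and Tfrc to -1.29. Between CD71+ cells Spp1 turned to -1.44, Cd63 to -0.80, Cd9 to -0.16, Tfe3 to -1.22 and Cd68 to -0.87.
With DESeq2 size factors and with DESeq2's Wald test 2 members passed as lower in the tumour, and 1212 and 1284 genes were lower in the difference. The signs of Spp1 (-0.11 and -0.093), Lgals3 (-0.11 and -0.084) and Cd63 (-0.16 and -0.14) turned in the tumour, as did Lgals3 in the difference (-0.16 and -0.14) and Tfrc in culture (-0.013 and -0.0051). None of these values passed in edgeR. Without a filter Lgals3 was -0.015 in the difference. A filter at a mean of 5 CPM dropped Ms4a7, so 0 members passed as higher in the difference, and left 3195 genes higher in CD71− and 3054 in CD71+ tumour cells against culture.
Leaving out a library in turn gave 0 to 1 members lower in the tumour. All genes passing ran from 2278 to 4467 higher in the tumour, 451 to 1506 higher and 375 to 1403 lower in culture, and 563 to 2101 higher and 297 to 1508 lower in the difference. Values that changed sign ran from -0.11 to 0.10 for Spp1, -0.11 to 0.29 for Lgals3 and -0.092 to 0.10 for Cd63 in the tumour, from -0.19 to 0.39 for Lgals3, -0.039 to 0.71 for Ms4a7 and -0.18 to 0.31 for Tfrc in culture, and from -0.28 to 0.30 for Lgals3 in the difference.
The labels' replicate numbers are shared between groups, but the labels do not say that they pair the samples. Deviations of same-numbered libraries correlated at 0.224 in the tumour and 0.0702 in culture, which does not settle whether they do. With the replicate number as a block, 2 members passed as higher in the tumour, Gpnmb (0.44) joining Ms4a7, Spp1 passed between CD71+ cells (0.41), and all genes passing were 4220 higher and 3015 lower in the tumour and 1507 and 1706 in culture. Depth limits Cd163 and, in 3 groups, Ms4a7.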
